A study of Mus musculus with 5 samples.

Results

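The ubiquitin-specific proteases (USPs) are the family of enzymes that cut ubiquitin from other proteins or from ubiquitin chains. Their mRNAs were followed in 5 RNA libraries from the neocortex of wild-type mouse embryos at E13.5. Genes were taken by name (Usp, then a number, with or without a letter), which gave 50 gene IDs. Usp9y and Usp26, which was listed at 0 in every library, were left out, so 48 of the 49875 gene IDs in the table were described. All samples came from the supernatant of a mild detergent lysate, taken as cytoplasm. There were 2 libraries of RNA precipitated with an antibody against eIF4E, the cap-binding protein of translation initiation, 2 libraries of Input (the supernatant before precipitation) and 1 library precipitated with rabbit control immunoglobulin G (IgG). The labels gave forebrain as the tissue and neocortex in the titles. Replicates were called biological, but neither animals nor pools were named, so p-values measure only the spread between these libraries, which may be technical.

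Ubiquitin is joined to proteins by a chain of E1, E2 and E3 enzymes, and deubiquitinases take it off again. A USP can thereby rescue a protein from the proteasome, change where a receptor is sorted, or reset a mark on histones. USPs make up the largest family of deubiquitinases. Several act in the developing brain: Usp9x is needed by neural progenitors, and Usp22 sits in the coactivator complex SAGA, where it removes ubiquitin from histone H2B.

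Values are gene abundances from RSEM, which are divided by transcript length and are either TPM or FPKM. Levels of different genes within a library can therefore be compared, whereas the sequencing depth is unknown. Fold changes and log2 differences are on the scale of value + 1, which understates the change of low genes. Testing was limited to the 12769 genes that reached a value of 1 in 2 or more of the 5 libraries, and 44 of the 48 USP genes were among them. "Passed" means a limma adjusted p under 0.05 over all 12769 genes. The low-value filter could be passed through a single group: 37 and 36 USP genes had a value of at least 1 in the Input libraries, 44 in each eIF4E library and 38 in IgG.

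The whole libraries set the frame for these values. The IgG library listed 11825 genes above 0, against 17412 to 18745 in the other 4, and it listed 7 USP genes at exactly 0. Defining genes of the dorsal forebrain were present in every library, with 13 of 13 above 0, a summed abundance of 1846 to 1891 in eIF4E, 2305 to 2348 in Input and 1904 in IgG. Of these, 8 passed as higher in eIF4E than in Input (61.5%) and 3 as lower (23.1%). Over all genes tested, 43.3% passed as higher and 30.6% as lower, and the counts of the short lists below stand beside these shares. The sum of 6 ventral forebrain genes was 34.9 to 37.0 in eIF4E, 30.6 to 33.1 in Input and 49.2 in IgG. Of the 5 tested, 3 passed as higher in eIF4E than in Input and 2 as lower, and Nkx2-1 was at 0 in every library. Markers of other cells were mostly lower in eIF4E than in Input: the sum of 5 erythroid genes was 4249 to 5555 in eIF4E, 15559 to 16971 in Input and 2295 in IgG, and that of 6 microglial genes 19.5 to 24.2, 49.6 to 58.6 and 22.0, with 4 of the 6 at 0 in IgG. Sums over 6 endothelial and mural genes were 38.8 to 40.7, 70.4 to 73.4 and 20.45, and over 5 meningeal genes 91.0 to 95.1, 115.0 to 133.9 and 271.3. In each of the latter lists, 2 genes were at 0 in IgG. Single genes held most of these IgG sums: Col3a1 241.8 of the meningeal, Rgs5 17.5 of the endothelial and mural, and C1qb 21.85 of the microglial. Of these markers of other cells, 5 of 5 erythroid, 4 of 6 microglial, 2 of 6 endothelial and 3 of 5 meningeal genes passed as lower in eIF4E than in Input, and 1 endothelial and 2 meningeal genes as higher. Their part in the USP values was not tested. The marker values are RNA abundances in precipitates and in the supernatant before precipitation, and they do not count cells.

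In Input, a few genes made up most of the family's RNA. The 5 most abundant, Usp5, Usp22, Usp10, Usp21 and Usp4, held 70.6% and 70.9% of the summed USP abundance of the Input libraries, and the median gene stood at 2.60 and 2.77. Usp5, which takes apart free ubiquitin chains, led with 230.5 and 243.6. Usp22 followed with 214.5 and 189.3, then Usp10, a partner of the stress granule protein G3bp1, with 153.6 and 161.2. Usp21, a histone H2A deubiquitinase, stood at 152.4 and 152.7, just below Usp10, and Usp4 at 120.5 and 122.9. Below them came Usp39 (77.7 and 77.9), Usp3 (53.4 and 53), Usp11 (41.2 and 41.1) and Usp14 (35.4 and 31.7).

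The same 5 genes led the eIF4E libraries in another order, with a smaller share of 55.7% and 55.6%. Usp10 came first at 200.8 and 207.3, whereas Usp5, first in Input, had rank 5 at 106.3 and 103.0. The median gene stood at 8.14 and 10.04, and the summed family abundance was 1277 and 1330, close to the 1234 and 1227 of Input. Relative to each library's total, the family took 0.178% and 0.188% in eIF4E, 0.147% and 0.145% in Input, and 0.25% in IgG. In the IgG library Usp4 led with 186.1, followed by Usp22 (132.1), Usp14 (131.7), Usp10 (111.6) and Usp36 (107.0).

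**Figure D1:**
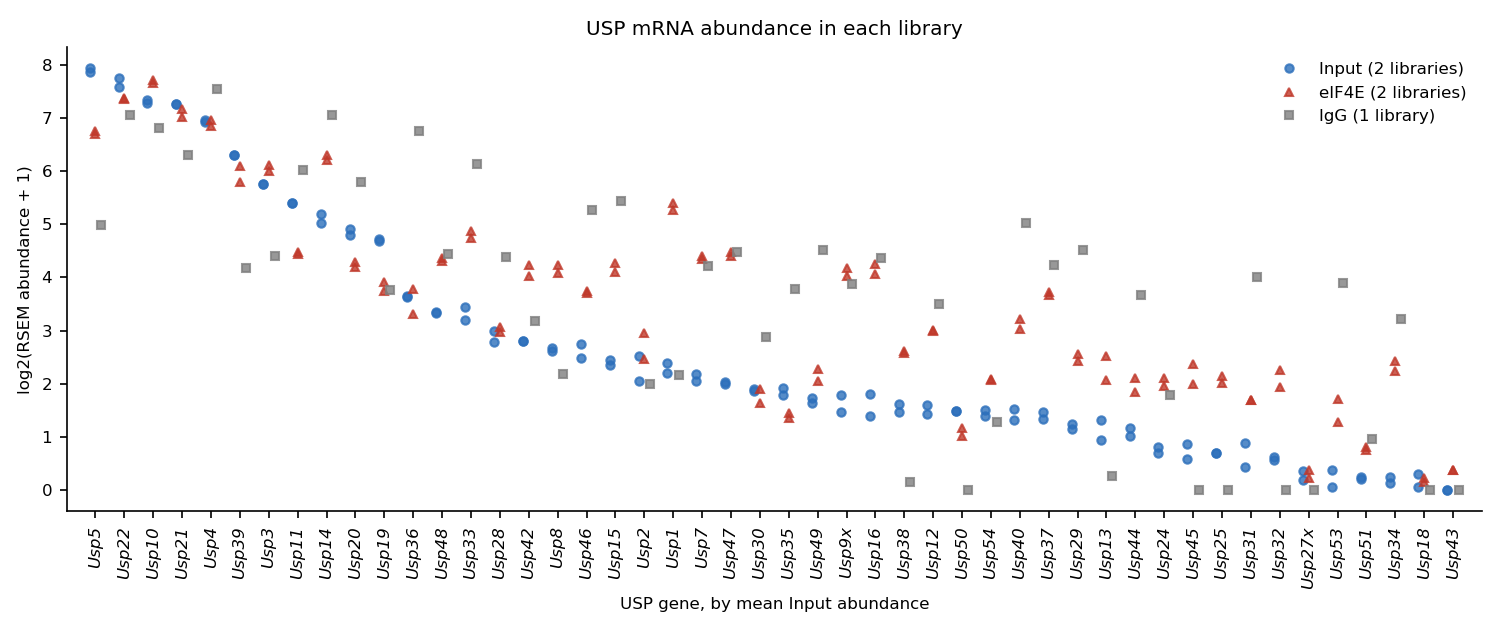
Abundance of the 48 USP genes in each of the 5 libraries, as log2(RSEM abundance + 1), ordered along the horizontal axis by mean Input abundance; circles are the 2 Input libraries, triangles the 2 eIF4E libraries and squares the IgG library. The replicate libraries lie close together, many genes in the lower part of the Input order lie higher in eIF4E, and the IgG values scatter widely.

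The replicates differed little for these genes. Between both eIF4E libraries the median absolute difference of the 44 tested genes was 0.14 on the log2 scale, and between both Input libraries 0.11. The largest was 0.49 and 0.47, for Usp2 in each pair, and no tested USP gene differed over 2-fold within a pair.

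Most tested USP mRNAs were relatively more abundant in the eIF4E precipitate than in the cytoplasmic RNA it was taken from, and most were also more abundant in the IgG precipitate than in Input. The DNA repair enzyme Usp1 stood out with an 8.19-fold difference, followed by Usp16, Usp9x, Usp47, Usp37, Usp7 and Usp34 at 4.41-fold to 5.87-fold. On the other side, Usp5, Usp11, Usp19 and Usp20 were at 0.444 to 0.653 of Input. Of the 44 tested USP genes, 30 were higher in eIF4E (68.2%), against 43.3% of all genes tested, and 8 were lower (18.2%), against 30.6% of all genes. The other 6 did not pass. Of the 30 higher genes, 7 (Usp24, Usp25, Usp31, Usp32, Usp34, Usp45 and Usp53) were below 1 in both Input libraries, so the filter admitted them through other groups and they could hardly come out lower. The same held for 18.2% of all higher genes. The median USP difference was log2 1.08 (2.11-fold), and that of all genes 0.16. The fit without the IgG library gave the same counts, 30 and 8. Of the 8 lower genes, 5 were counted when either Input library was left out, and 4 after rescaling the libraries to the same total, which moved the median of all genes to 0.38. Scaling by the median of ratios moved it to −0.11 and gave 34.6% of all genes higher and 41.2% lower; quantile normalization also moved it to −0.11, with 33.7% and 40.3%. Relative to the median of all genes, the USP median lay 0.92 higher as fitted, and 0.94, 0.78 and 0.95 higher after median-of-ratios, quantile and same-total scaling. The distance depended on the pseudocount, being 0.42 with 5 and 1.14 with 0.1.

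**Figure D2:**
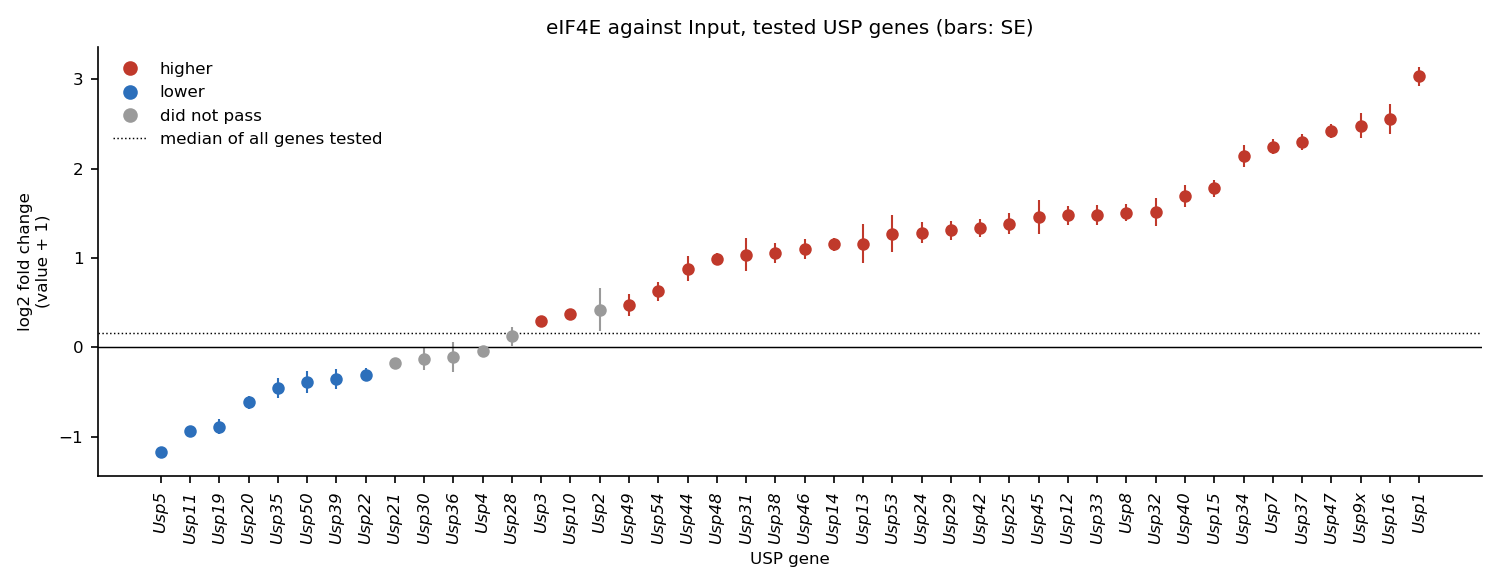
Log2 fold change (value + 1) of eIF4E against Input for the 44 tested USP genes in rising order, with standard errors as bars; red and blue points are higher and lower at a limma adjusted p under 0.05, grey points did not pass, and the dotted line is the median of all genes tested (0.16). The genes range from Usp5 at −1.17 to Usp1 at 3.03.

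eIF4E binds the cap, which is joined to the first transcribed base, so the annotated start sites of some of the higher and lower USP genes are shown for orientation, 15 bases on either side, 5′ to 3′ on the gene's strand, with the transcribed bases in capitals. They are RefSeq sequences of GRCm38.p6, which held a start for 36 of the 48 genes; the start used in these cells was not measured. The first 3 belong to genes higher in eIF4E than in Input and the last 3 to genes lower.
Usp16 (chr16:87454970-87454999, plus strand): gttccggaagttgccTCTCCGGGAGGGTGG
Usp37 (chr1:74505807-74505836, minus strand): tgtttgcgtgtagtcATAGTTCCCGCCATC
Usp7 (chr16:8738328-8738357, minus strand): ctagcagccgcccgcCCGCCGGGCCCGCAG
Usp19 (chr9:108490661-108490690, plus strand): accaagagctcccacTCTTGCCGGAAGTGC
Usp20 (chr2:30982264-30982293, plus strand): cccgctcctggcataGGCTCTCCCGATTGG
Usp35 (chr7:97332095-97332124, minus strand): cccgactgggagctcGCAGGGTAACCCCCG

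Many mRNAs of the translation machinery start with a terminal oligopyrimidine (TOP) tract, a C at the cap followed by C or T. None of the 36 USP starts had a C at the first transcribed base followed by at least 4 bases of C or T on the transcribed strand, a pattern held by 2.51% of the 32851 RefSeq promoters. With a share that low, finding none among 36 starts does not set the USP genes apart. These letters being absent at the annotated start says nothing about other starts. Over 300 bases around the start, the median GC content was 65.7% in the 36 USP promoters (45.0% to 86.0%). It was 52.7% in all 32851 RefSeq promoters, which were not limited to the genes tested here. Among the USP promoters it was 66.3% (45.0% to 86.0%) in the 23 whose genes were higher in eIF4E than in Input. In the 5 whose genes were lower it was 59.0% (47.0% to 75.3%), a range within that of the 23, and the difference was not tested.

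Among the enzymes of ubiquitin recycling, relatives went opposite ways. Usp5 (chromosome 6, 124815019 to 124829484, GRCm38.p6) measured 106.3 and 103.0 in eIF4E against 230.5 and 243.6 in Input, a fall to 0.444 (log2 −1.17, SE 0.05, adjusted p = 1.1e-04). Its libraries did not overlap, and IgG was lower still at 30.8. Usp13, its closest relative, measured 3.21 and 4.72 in eIF4E against 1.50 and 0.93 in Input (2.23-fold, adjusted p = 0.00744). That call was lost without Input replicate 2 (log2 0.97, adjusted p = 0.0511) and after quantile normalization (adjusted p = 0.054). Usp14, which trims chains on the proteasome, stood at 73.2 and 78.3 against 35.4 and 31.7, a rise of 2.22-fold (adjusted p = 2.7e-04).

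Histone deubiquitinases were spread over the range, with 4 of 6 tested higher and 1 lower. The counts of the role groups stand beside the 43.3% higher and 30.6% lower of all genes, and with 1 to 7 genes each they are descriptions only. Usp16 (chromosome 16, 87454985 to 87483515), which removes ubiquitin from histone H2A, measured 18.2 and 15.7 in eIF4E against 2.52 and 1.64 in Input, a rise of 5.87-fold (log2 2.55, SE 0.17, adjusted p = 2.7e-04). Both eIF4E values were several times the Input values. The H2A enzyme Usp3 was 1.22-fold higher (62.9 and 67.8 against 53.4 and 53, adjusted p = 0.011), a small difference that did not pass without either Input library (adjusted p = 0.0671 and 0.0721) and lay at log2 −0.03 after median-of-ratios scaling. Usp21 did not pass (128.2 and 141.8 against 152.4 and 152.7, adjusted p = 0.0571). It passed as lower without eIF4E replicate 2 (log2 −0.25, adjusted p = 0.0179) and with median-of-ratios factors (log2 −0.50).

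Usp22 (chromosome 11, 61151781 to 61175059), the SAGA enzyme, stood at 161.7 and 164.2 in eIF4E against 214.5 and 189.3 in Input, 0.809 of Input (adjusted p = 0.0157). The groups did not overlap, but the call was lost without Input replicate 1 or either eIF4E library (adjusted p = 0.0642 to 0.0736) under quantile and same-total scaling (log2 −0.13 and −0.07) and with no filter (adjusted p = 0.0574). Its relatives Usp27x and Usp51 lay below the filter, at 0.14 to 0.31 and 0.16 to 0.75 in eIF4E and Input, with Usp27x at 0 and Usp51 at 0.94 in IgG. The H2B enzymes Usp44 and Usp49 were 1.84-fold and 1.39-fold higher (2.58 and 3.33 against 1.02 and 1.26, and 3.88 and 3.14 against 2.32 and 2.13). Usp49 lost its call without either Input library or eIF4E replicate 1 (adjusted p = 0.0703 to 0.1), with median-of-ratios scaling (0.126) and with no filter (0.0534). It lay at log2 −0.02 after quantile normalization, which also took the call of Usp44 (adjusted p = 0.0639).

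The genes of genome maintenance and the p53 pathway held the largest difference of the family, with 5 of 7 higher and 1 lower. Usp1 (chromosome 4, 98923810 to 98935543), which acts on Fancd2 and Pcna in DNA repair, measured 37.4 and 41.5 in eIF4E against 3.63 and 4.25 in Input. This was a rise of 8.19-fold (log2 3.03, SE 0.11, adjusted p = 7.7e-05) and took Usp1 from rank 21 of the family in Input to rank 9 in eIF4E. IgG, at 3.48, lay at the level of Input. Wdr48 (UAF1), the subunit that activates Usp1, Usp12 and Usp46, was 2.18-fold higher (31.9 and 32.8 against 14.7 and 13.9).

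Usp7, which stabilises the p53 ligase Mdm2, measured 19.2 and 20.1 in eIF4E against 3.55 and 3.16 in Input, 4.74-fold higher (adjusted p = 9.0e-05), with 17.5 in IgG. Usp47, linked to base excision repair, stood at 20.04 and 21.3 against 3.00 and 3.09, 5.35-fold higher, with 21.4 in IgG. For both genes the IgG value was thus near the eIF4E values. Usp45 was 2.75-fold higher (3.02 and 4.21 against 0.51 and 0.83) and was listed at 0 in IgG. Usp10, the most abundant USP mRNA in eIF4E, was 1.29-fold higher (200.8 and 207.3 against 153.6 and 161.2, adjusted p = 0.0022), but stood at log2 0.05 after median-of-ratios scaling (adjusted p = 0.474). Usp11 (chromosome X, 20703909 to 20720539) was the exception, at 20.7 and 21.4 against 41.2 and 41.1, a fall to 0.523 (log2 −0.94, SE 0.06, adjusted p = 2.1e-04). Usp28, which protects Myc, did not pass (7.38 and 6.88 against 7.0 and 5.93, log2 0.13). It lay lower after quantile normalization (log2 −0.45, adjusted p = 0.019) and higher at the same total (log2 0.35, adjusted p = 0.0421).

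The pair that works with UAF1, Usp12 and Usp46, rose together. Usp12 measured 6.95 and 7.04 in eIF4E against 2.05 and 1.71 in Input (2.78-fold), and Usp46, which acts on glutamate receptors in neurons, 12.4 and 12.0 against 4.62 and 5.73 (2.15-fold). Their IgG values were 10.3 and 37.3.

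Of the USPs of endosomes and receptors, 3 of 5 were higher and 1 lower. Usp8, which deubiquitinates receptors on endosomes with the ESCRT subunit Stam, stood at 15.9 and 17.8 against 5.38 and 5.16, 2.84-fold higher (adjusted p = 2.4e-04), with 3.55 in IgG. Usp32 was 2.85-fold higher (2.85 and 3.81 against 0.48 and 0.54) and listed at 0 in IgG. Usp33 and Usp20 are close relatives that act on the same kind of membrane receptors. Usp33 was 2.80-fold higher (28.2 and 25.8 against 9.92 and 8.14), whereas Usp20 fell to 0.653 (17.4 and 18.5 against 26.9 and 29.1, adjusted p = 0.0016). Usp2, with the widest spread between replicates, did not pass (6.77 and 4.55 against 4.78 and 3.16, adjusted p = 0.176). It passed as higher with a replicate block (log2 0.42, adjusted p = 0.0314), although the labels do not say that same-numbered libraries are paired.

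In the Wnt and TGF-beta group 3 of 4 genes were higher and none lower. Usp9x (chromosome X, 13070982 to 13173328), a very large enzyme of neural progenitors that acts on Smad4 and doublecortin, measured 17.2 and 15.4 in eIF4E against 1.76 and 2.46 in Input, a rise of 5.58-fold (log2 2.48, SE 0.14, adjusted p = 1.9e-04). Usp34, which acts on axin, rose 4.41-fold from 0.19 and 0.10 to 3.72 and 4.39. Its Input values lay close to 0, so the size of this difference depends on the added 1. Usp15 stood at 18.3 and 16.1 against 4.46 and 4.12, 3.43-fold higher. Its relative Usp4 did not pass (114.6 and 122.8 against 120.5 and 122.9, log2 −0.04, adjusted p = 0.57), with groups that overlapped. Scaling set its direction: log2 −0.36 with median-of-ratios factors (adjusted p = 0.00473) and 0.20 at the same total (adjusted p = 0.0314).

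The USPs of mitochondria and endoplasmic reticulum had no higher gene. Usp19 (chromosome 9, 108490607 to 108502337), a form of which is anchored in the endoplasmic reticulum, fell to 0.541 (14.0 and 12.4 against 24.8 and 25.5, log2 −0.89, adjusted p = 8.2e-04). Usp35 was at 0.732 of Input (1.75 and 1.56 against 2.47 and 2.79, adjusted p = 0.0177), a call lost without Input replicate 2 or eIF4E replicate 2 (adjusted p = 0.0822 and 0.0758) and at the same total (0.0635). Usp30, an enzyme of the mitochondrial outer membrane that opposes mitophagy, did not pass (2.12 and 2.72 against 2.67 and 2.76, log2 −0.12), but was lower after quantile normalization (log2 −0.72, adjusted p = 0.00602).

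The remaining members with known nuclear or signalling roles were mixed. Usp39, a spliceosome protein without deubiquitinase activity, stood at 0.782 of Input (54.7 and 67.2 against 77.7 and 77.9, adjusted p = 0.0354), a call lost without either Input library (adjusted p = 0.149 and 0.152), under quantile (0.0554) and same-total scaling (0.395) and with no filter (0.108). Usp36 of the nucleolus did not pass (8.89 and 12.8 against 11.6 and 11.5, log2 −0.10), although it was lower without eIF4E replicate 2 (log2 −0.34, adjusted p = 0.0289), and its relative Usp42 was 2.52-fold higher (17.8 and 15.4 against 6.0 and 5.95). Usp37, which stabilises cyclin A at the start of S phase, measured 12.2 and 11.8 against 1.76 and 1.53, 4.91-fold higher (log2 2.30, SE 0.09, adjusted p = 9.7e-05), with 17.8 in IgG. Usp25 was 2.61-fold higher (3.03 and 3.44 against 0.62 and 0.62) and listed at 0 in IgG. Usp18, which removes the ubiquitin-like protein ISG15 and marks interferon responses, stayed below the filter at 0.04 to 0.24 in eIF4E and Input and 0 in IgG.

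Of the members long held to lack activity, Usp53 and Usp54 were 2.42-fold and 1.55-fold higher, at 2.29 and 1.44 against 0.05 and 0.31, and at 3.28 and 3.22 against 1.85 and 1.65. The call of Usp54 was lost after quantile normalization (log2 0.15, adjusted p = 0.263). Usp50 was at 0.764 of Input (1.26 and 1.03 against 1.80 and 1.81, adjusted p = 0.0386). Its call was lost without either Input library (adjusted p = 0.12 and 0.125), without eIF4E replicate 2 (0.102), at the same total (0.14) and with a pseudocount of 0.1 (0.058). The 6 tested genes without a role assigned here, Usp24, Usp29, Usp31, Usp38, Usp40 and Usp48, were all higher, from 1.98-fold for Usp48 (19.5 and 18.8 against 9.27 and 9.03) to 3.23-fold for Usp40 (7.15 and 8.27 against 1.51 and 1.88). Usp43 lay below the filter, at 0.31 in both eIF4E libraries and 0 in the other 3.

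Sets of related genes show how far close relatives lay apart. In 4 of the 14 sets, members passed in opposite directions: Usp5 and Usp13, Usp20 and Usp33, Usp35 and Usp38, and Usp11 and Usp15. Usp38 stood at 4.99 and 5.15 in eIF4E against 1.78 and 2.08 in Input (2.07-fold), beside the fall of Usp35. Members were all higher in Usp9x and Usp24 (5.58-fold and 2.44-fold), Usp12 and Usp46, Usp16 and Usp45, Usp29 and Usp37 (2.48-fold and 4.91-fold), Usp53 and Usp54, and Usp44 and Usp49, of which Usp49 lay at log2 −0.02 after quantile normalization. In the sets that split, the lower member was the more abundant one in Input: Usp5 over Usp13, Usp20 over Usp33, Usp11 over Usp15, and Usp35 (2.47 and 2.79) over Usp38 (1.78 and 2.08). Input is also the denominator of the fold change, so a higher Input value and a lower fold are linked by construction. The calls of Usp13 and Usp35 were lost under some alternatives, as given above. The difference between relatives was not tested.

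Some USP genes overlap an abundant neighbour at one end, and the libraries do not mark strand, so reads from the shared bases cannot be told apart. Usp44 overlaps Metap2 (456.4 and 478.2 in eIF4E, 114.3 and 105.9 in Input). Usp16 overlaps Cct8 (313.0 and 300.6 against 155.2 and 164.1), and Usp34 overlaps Ahsa2 (65.8 and 72.6 against 18.4 and 11.9). The neighbour of Usp14, Thoc1, stood at 32.2 and 33.6 against 4.61 and 3.81, and that of Usp45, Tstd3, at 22.7 and 20.6 against 3.58 and 4.0. Cnot9, inside the span of Usp37, stood at 66.5 and 64.9 against 73.8 and 69.5, and Tomm6 at Usp49 at 245.8 and 198.2 against 260.7 and 273.2. The part of the neighbours in the USP values was not tested.

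**Figure D3:**
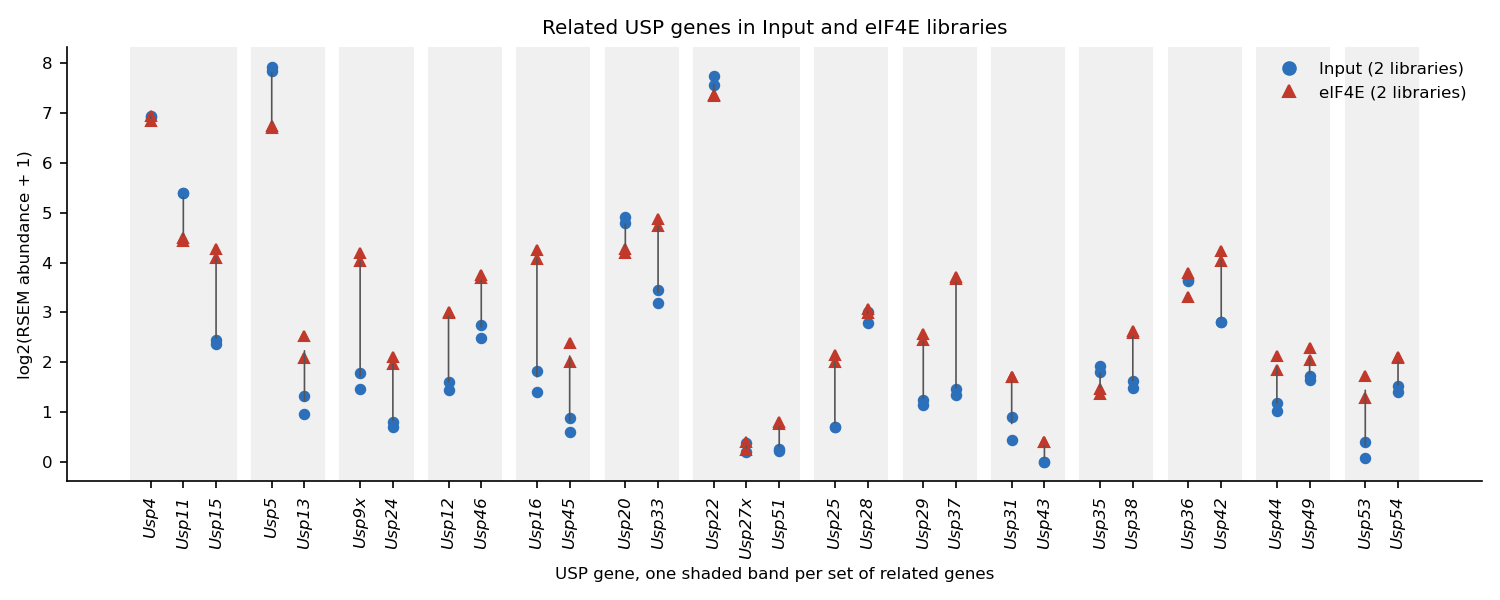
Abundance of related USP genes as log2(RSEM abundance + 1), 1 shaded band per set; circles are the 2 Input libraries, triangles the 2 eIF4E libraries, and lines join the values of the group means. The lines of Usp5 and Usp13, of Usp20 and Usp33, of Usp11 and Usp15 and of Usp35 and Usp38 run in opposite directions.

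Gene length on the genome, introns included, went with the difference between eIF4E and Input. Across the 44 tested USP genes, Spearman's rho of gene length and log2 fold change was 0.595. The genes share the same 4 libraries, and gene length is not mRNA length. Among the 14 shortest genes (6013 to 34290 bases) 3 were higher and 7 lower in eIF4E, with a median of log2 −0.24. Of the 16 genes in the middle (36535 to 68346 bases) 13 were higher and 1 lower, with a median of 1.09. All 14 of the longest genes (69686 to 236662 bases) were higher as fitted, with a median of 1.42, although Usp3, 1 of them, lay at log2 −0.03 with median-of-ratios factors. Usp13 and Usp54, also among the longest, did not pass after quantile normalization (log2 0.71 and 0.15, adjusted p = 0.054 and 0.263). Of these 14, 5 were below 1 in both Input libraries, so that the filter all but fixed their direction. Over all 12399 tested genes with a length, rho was 0.401. In the same length ranges, 37.9%, 58.4% and 66.5% of all genes were higher, and 35.8%, 18.2% and 13.3% lower. The shortest genes included the exceptions Usp1 (11734 bases, log2 3.03) and Usp16 (28531 bases, log2 2.55) beside Usp19 (11731 bases) and Usp5 (14466 bases), which fell. The control precipitate also went with length: for IgG against Input, rho was 0.357 over the 44 genes and 0.389 over all genes. For eIF4E against IgG it was 0.00183 and −0.257.

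**Figure D4:**
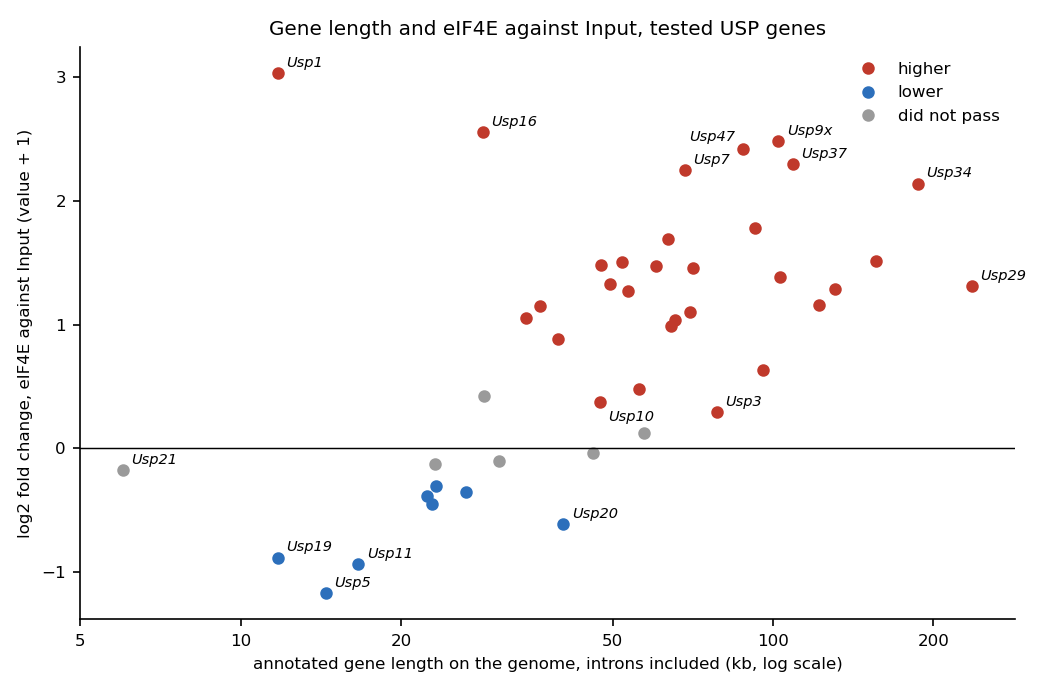
Gene length on the genome in kilobases (log scale) against the log2 fold change (value + 1) of eIF4E against Input for the 44 tested USP genes; colours give the limma call. As fitted, the longest genes all lie above 0 (Usp3 at log2 −0.03 with median-of-ratios factors), and Usp1 and Usp16 lie far above the other short genes.

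Set against the control precipitate, fewer USP mRNAs were higher in eIF4E than lower. Usp1, Usp38, Usp13, Usp8, Usp39, Usp5 and Usp3 were among the higher genes, and Usp36 and Usp53 lay lowest. Several genes far above Input, such as Usp16 and Usp47, did not pass. The comparison rests on 1 IgG library, assumed to vary like the others, and on relative values, since how much RNA each precipitate held was not given. Of the 44 tested USP genes, 16 were higher in eIF4E (36.4%), against 53.1% of all genes tested, and 20 were lower (45.5%), against 30.6% of all genes. The median USP difference was log2 −0.08 and that of all genes 0.55. After rescaling the libraries to the same total, these medians were −0.42 and 0.27. Quantile normalization gave 11 higher and 22 lower, against 36.1% and 37.9% of all genes, where the median of all genes was −0.04. With genes at 0 in any library left out, 12 of 40 USP genes were higher and 20 lower.

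The largest difference was again that of Usp1, at 37.4 and 41.5 in eIF4E against 3.48 in IgG, 9.01-fold higher (log2 3.17, SE 0.13, adjusted p = 4.6e-05). Usp38 followed at 4.99 and 5.15 against 0.12, then, among genes above 0 in IgG, Usp13 at 3.21 and 4.72 against 0.20 and Usp8, 3.92-fold higher. The call of Usp13 was lost after quantile normalization (adjusted p = 0.554). Usp5, Usp39 and Usp3, of which Usp5 and Usp39 were below Input, were 3.32-fold, 3.39-fold and 3.12-fold above IgG. Usp10, Usp21, Usp42 and Usp54 were 1.73-fold to 1.93-fold higher, although Usp54 was lower after quantile normalization (log2 −0.52, adjusted p = 0.0183). Usp22 was 1.23-fold higher, a call lost without either eIF4E library (adjusted p = 0.0792 and 0.0927) and turned under quantile and same-total scaling (log2 −0.19 and −0.05).

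The 4 tested genes listed at 0 in IgG, Usp25, Usp32, Usp45 and Usp50, also passed as higher, with 3.03 and 3.44, 2.85 and 3.81, 3.02 and 4.21, and 1.26 and 1.03 in eIF4E. No fold is given against a 0, which can be a failed estimate. Quantile normalization took the calls of Usp45 (adjusted p = 0.0559) and Usp50 (log2 −0.25).

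Genes lower in eIF4E than in IgG included the relatives Usp4, Usp11 and Usp15, with 114.6 and 122.8 against 186.1, 20.7 and 21.4 against 64.0, and 18.3 and 16.1 against 42.2. Usp36 lay lowest, at 8.89 and 12.8 against 107.0 (0.108 of IgG, log2 −3.21, adjusted p = 1.5e-04). Usp53 (2.29 and 1.44 against 13.8), Usp35 (1.75 and 1.56 against 12.7) and Usp49 (3.88 and 3.14 against 21.8) were at 0.191 to 0.197 of IgG, and Usp31 (2.25 and 2.25 against 15.1) at 0.202. Usp20 and Usp33, which differed in direction against Input, were both lower than IgG, at 0.340 and 0.399. Usp14 was at 0.578 and Usp37 at 0.692. The others, Usp28, Usp29, Usp30, Usp34, Usp40, Usp44 and Usp46, lay between 0.247 (Usp29, 4.41 and 4.93 against 21.9) and 0.540 (Usp34, 3.72 and 4.39 against 8.34). Usp12, at 0.706, lost its call without either eIF4E library (adjusted p = 0.0657 and 0.0612).

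The genes that did not pass against IgG included 4 with strong differences from Input: Usp16 (18.2 and 15.7 against 19.6), Usp47 (20.04 and 21.3 against 21.4), Usp7 (19.2 and 20.1 against 17.5) and Usp9x (17.2 and 15.4 against 13.7). Their log2 differences ran from −0.20 to 0.23, with adjusted p from 0.227 to 0.654. Usp47 was lower at the same total (log2 −0.39, adjusted p = 0.0192). Usp24 and Usp48 did not pass either (adjusted p = 0.191 and 0.3), but Usp24 was lower after quantile normalization (log2 −0.81, adjusted p = 0.00534) and Usp48 at the same total (log2 −0.45, adjusted p = 0.00714). Usp19 (adjusted p = 0.646) and Usp2 (0.0773) complete the 8.

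**Figure D5:**
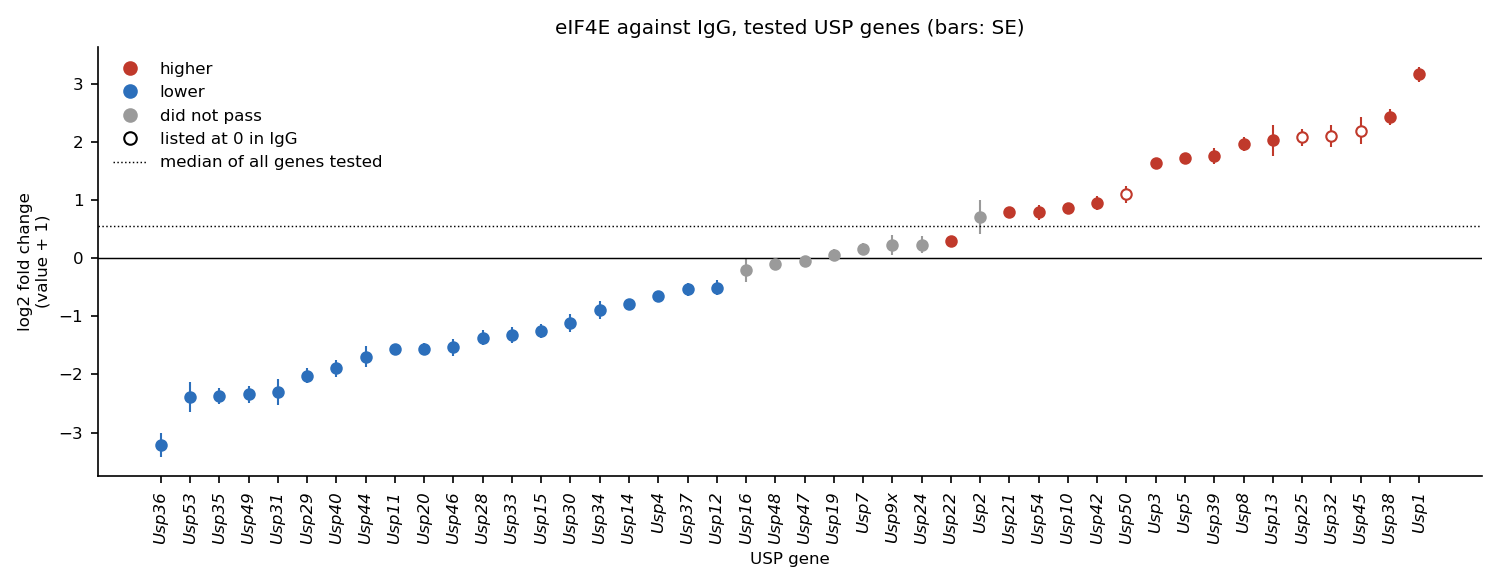
Log2 fold change (value + 1) of eIF4E against the single IgG library for the 44 tested USP genes in rising order, with standard errors as bars; open points are genes listed at 0 in IgG, and the dotted line is the median of all genes tested (0.55). Usp36 lies lowest at −3.21 and Usp1 highest at 3.17.

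The control precipitate itself differed from Input. Of the 44 genes, 27 were higher in IgG than in Input (61.4%), against 37.8% of all genes tested, and 14 were lower (31.8%), against 50.3%. The median USP difference was log2 1.02 and that of all genes −0.43. Quantile normalization gave 27 higher and 7 lower, against 39.5% and 40.5% of all genes. The 14 lower became 10 without Input replicate 1 and 11 without Input replicate 2. Both comparisons use the same Input libraries, so the values stand side by side: Usp16 was 6.75-fold above Input in IgG and 5.87-fold in eIF4E, Usp47 5.54-fold and 5.35-fold, Usp9x 4.75-fold and 5.58-fold, Usp7 4.25-fold and 4.74-fold, and Usp37 7.10-fold and 4.91-fold. Usp1 did not pass in IgG against Input (log2 −0.14, adjusted p = 0.358) and was 8.19-fold higher in eIF4E. Usp36 was 8.62-fold above Input in IgG and did not pass in eIF4E. Usp8 was below Input in IgG (log2 −0.46) and 2.84-fold above it in eIF4E. That call in IgG was lost without either Input library (adjusted p = 0.0653 and 0.0509), and the difference was log2 0.02 at the same total.

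The rest of the ubiquitin pathway was read from lists chosen with earlier results of these data known. The other deubiquitinases were listed by family, outside the named USPs. Of 29 tested genes on this list, 21 were higher in eIF4E than in Input (72.4%, against 43.3% of all genes) and 3 lower (10.3%, against 30.6%). Among the 21, Uspl1 (2.03-fold) and Cops5 (1.61-fold) are not held to act mainly on ubiquitin. The median of the list was log2 0.99, beside the 1.08 of the USP genes. The 3 lower became 5 after median-of-ratios or quantile scaling. Zup1 (5.68-fold; 9.16 and 9.0 against 1.03 and 0.55) and Yod1 (5.12-fold) were highest, and Uchl1, the abundant neuronal ubiquitin hydrolase, fell to 0.489 (152.5 and 114.8 against 268.6 and 274.3) and Otub1 to 0.550. In the IgG library Zup1 and Yod1 stood at 31.1 and 42.0, above their eIF4E values. Uchl1 and Otub1 stood there at 68.2 and 85.7, below theirs. Among 16 partners of USPs, 12 were higher (75.0%) and 4 lower (25.0%). G3bp2, a partner of Usp10, was 4.07-fold higher and Gmps, a partner of Usp7, 2.99-fold, whereas Ptpn23 and Hgs were at 0.474 and 0.524. The endosomal partners thus split, since Stam and Stam2 were 2.36-fold and 1.66-fold higher.

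Upstream of the USPs, 5 of the 6 ubiquitin and E1 genes were lower in eIF4E than in Input (83.3%, against 30.6% of all genes). Uba1, the main E1 enzyme, fell to 0.337 (40.3 and 34.2 against 110.0 and 114.5) and the polyubiquitin gene Ubb to 0.568. Uba6, the second E1, was 1.93-fold higher (1.43 and 1.44 against 0.31 and 0.21). Of 33 E2 enzymes 17 were higher (51.5%) and 11 lower (33.3%), shares near those of all genes, with a median of 0.27; 7 were lower at the same total. Ube2v2 was 7.21-fold and Ube2r2 2.47-fold higher, and Ube2l6 and Cdc34 were at 0.461 and 0.543. Among 12 substrates of USPs, 6 were higher (50%, against 43.3% of all genes), 1 was lower (8.3%, against 30.6%) and 5 did not pass. The highest were Dcx (4.36-fold) and Mdm2 (3.31-fold). Dcx stood at 106.5 in IgG, above its eIF4E values, and Mdm2 at 55.2. For IgG against Input, the median of all genes was log2 −0.43. Beside it, the medians were 0.91 for the other deubiquitinases, 0.68 for the partners and 1.50 for the substrates. They were −2.065 for the ubiquitin and E1 genes and −0.52 for the E2 enzymes. Against IgG, where 53.1% of all genes were higher and 30.6% lower, the shares were 48.3% and 34.5% of the other deubiquitinases, 43.8% and 31.2% of the partners, 63.6% and 27.3% of the E2 enzymes, and 33.3% and 50% of the substrates. Of the 6 ubiquitin and E1 genes 5 were higher and 1 lower.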

How the data were processed

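RNA from E13.5 mouse cortex was measured in 5 libraries, 2 of eIF4E, 2 of Input and 1 of IgG by their titles. They were made by Smart-seq2, per the labels' protocols, a method that primes on poly(A) and marks neither strand nor molecules. The authors deposited 1 table of abundance signal per gene and library. The genome build mm10 and the tools RSEM 1.3.3 and STAR 2.7.9a are listed per the submitters' processing notes. The annotation, the options and whether values are TPM or FPKM were not given in the sources used here. RSEM shares reads among similar genes, so near-identical copies are uncertain.

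Of 50161 rows, 286 that repeated a gene ID with identical values were dropped. Values were taken as log2(value + 1), with no further scaling between libraries in the main fit. The summed values of the libraries were 718857 and 708778 in eIF4E, 838759 and 848550 in Input, and 560076 in IgG. The 12769 genes that reached 1 in 2 or more libraries were fitted with limma 3.58.1 in R 4.3.3, 3 groups over all 5 libraries, eBayes with trend, two-sided, with Benjamini-Hochberg adjustment over all genes and a threshold of 0.05. The fit has 2 residual degrees of freedom. It was also run on simulated data with independent noise and no shift between libraries, a simpler setting that does not check the calls made here. Coordinates and start-site sequences were matched by symbol to RefSeq tables of GRCm38.p6 (48 and 36 of 48 genes). Promoters ran from 250 bases before the start over 300 bases.

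The genes described and all lists were chosen with earlier results of these data known. Full values were given for genes with a role assigned that were among the 8 highest and 8 lowest differences past the threshold against Input or the 4 highest and 4 lowest against IgG, the 5 most abundant in Input and sets of related genes; other members are given more briefly. In each pathway list, genes among the 2 highest and 2 lowest past the threshold were named, with Wdr48, Ubb, Stam and Stam2 added after their values were seen. Some genes and sequences that these rules pick are not reported here. Alternatives covered scaling, pseudocount, filter, replicates left out, a replicate block and the fit without IgG.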

Additional observations from a re-analysis of the deposited data

How the results depend on the processing

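Depth is unknown, so no counting error is attached to low values, and IgG has no replicate. Leaving out 1 replicate at a time gave 27 to 30 USP genes higher and 5 to 7 lower in eIF4E than in Input, 15 to 16 higher and 19 to 20 lower than in IgG, and 26 to 27 higher and 10 to 14 lower in IgG than in Input. The 8 genes lower than Input became 4 at the same total, and the 14 lower in IgG than in Input became 7 after quantile normalization; apart from the 5 lower genes without either Input library, every other count of USP genes under the alternatives run stayed within 1.5 times. The numbers of the eIF4E and Input replicates do not pair the libraries as far as the labels say (correlation of same-numbered deviations 0.0236). With a replicate block, IgG left out, 31 USP genes were higher and 7 lower; Usp2 passed as higher (log2 0.42, adjusted p = 0.0314) and Usp50 did not pass (0.0563). Among log2 differences that passed in at least 1 of both settings compared, signs turned as follows, and the cause was not tested; 19 other signs turned where neither passed. Against Input: Usp3 −0.028 (median of ratios), Usp4 0.20 (same total), and Usp28 −0.45 and Usp49 −0.0207 (quantile). Against IgG: Usp22 −0.19, Usp24 −0.81, Usp50 −0.25 and Usp54 −0.52 (quantile), and Usp22 −0.0476 (same total). In IgG against Input: Usp8 0.01835 and Usp10 0.0941 (same total), and Usp10 0.0211, Usp13 0.49, Usp22 0.06155, Usp25 0.21, Usp32 0.28, Usp38 0.0713, Usp42 -8.7e-05, Usp45 0.18 and Usp54 0.67 (quantile). Of the other differences of single genes under the alternatives, 32, 7 and 19 lost their call in the 3 comparisons and 7, 2 and none gained one.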
